A study of Mus musculus with 5 samples.

Results

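CDK inhibitors and D-type cyclins set whether a cell leaves or enters the cell cycle, and they were followed here across liver sinusoidal endothelial cells (LSECs), tumor endothelial cells (TECs) and cultured hepatoma cells. The 10 genes were chosen by name: the Cip/Kip inhibitors Cdkn1a, Cdkn1b and Cdkn1c, the INK4 inhibitors Cdkn2a, Cdkn2b and Cdkn2c, the D-type cyclins Ccnd1, Ccnd2 and Ccnd3, and Trp53. They are 10 of 37074 gene names on the array and were read by 20 of its 56605 probes. Each gene was described by all of its probes, of which 3 genes had 1, 4 genes had 2 and 3 genes had 3.

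RNA of each of 5 conditions was hybridized to 1 Agilent mouse array of 60-mer probes and read in 1 colour. LSECs came from mouse liver. TECs were the cells that anti-CD31 magnetic beads held back from tumors grown in the left liver lobe, after injection of a human hepatoma line (HAK-1B or KYN-2) or of the mouse line Hepa1-6. The paper measured the purity of the LSECs and of each TEC isolate by flow cytometry. It reports TECs as the large majority of the isolated cells and calls contamination by cancer cells inevitable. CD31 is also found on some leukocytes and on platelets, and whether animals were pooled is not given in the sources used here. The fifth array held Hepa1-6 cells grown in culture. The labels give the strain as C57BL/6 for LSECs and all 3 TECs and as C57L for the cultured cells, while the methods name female C57BL/6 or nude BALB/c nu/nu mice without saying which mouse carried which tumor. The labels give no treatment for any sample. The section of the methods on the arrays names Huh-7 where the labels name HAK-1B, and the labels were followed. The 3 TEC arrays shared 1 slide, whereas LSECs and cultured cells each had a slide of their own, so that slide and group cannot be told apart. With 1 array for each condition there was no replicate, and the values below describe these arrays.

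Progression through G1 depends on D-type cyclins, which bind Cdk4 and Cdk6 and start the phosphorylation of the retinoblastoma protein. INK4 proteins bind Cdk4 and Cdk6 and keep them from the cyclins, whereas Cip/Kip proteins bind complexes of cyclins with Cdk2 and other kinases. The p53 protein, encoded by Trp53, responds to DNA damage and other stress by transcription of genes that include Cdkn1a. Most LSECs of the adult liver are quiescent.

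The endothelial label was checked first. All 18 pan-endothelial markers were well above background on the LSEC array and on each TEC array, and 5 of them were on the array of cultured cells, where Cdh5 and Kdr were not. Their summed signal on the linear scale was 806348 in LSECs, 104948 in HAK-1B TECs, 106203 in Hepa1-6 TECs, 205294 in KYN-2 TECs and 9646 in cultured cells. The median log2 ratio of the markers to LSECs was -2.73 in HAK-1B TECs, -2.58 in Hepa1-6 TECs and -1.63 in KYN-2 TECs. All 15 LSEC markers, such as Stab1 and Clec4g, were above background in LSECs and in each TEC, with a summed signal of 789843 in LSECs and between 86278 and 120477 in TECs. All 15 macrophage markers were above background in LSECs and in each TEC too, so none of these samples was endothelial alone. Their summed signal was 757674 in LSECs, 962860 in HAK-1B TECs, 480873 in Hepa1-6 TECs and 660271 in KYN-2 TECs. In LSECs the Kupffer cell lectin Clec4f read 17.07 on the log2 scale. From the array signals of such bulk samples, fewer cells of a type and less RNA per cell cannot be told apart. The purity that the paper measured by flow cytometry was not set against these signals.

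Signals are given as log2 of the background-subtracted spot intensity, quantile normalized over the 5 arrays. Of the 20 probes, 14 were well above background on all 5 arrays and 18 on the LSEC array and the 3 TEC arrays. All 20 were above background on at least 1 array, and no probe was saturated. Of all probes on the LSEC array 54.1% were well above background, and 44.6% on that of cultured cells. The share was 78.1% for Hepa1-6 TECs, 57.6% for HAK-1B TECs and 54.7% for KYN-2 TECs. The lowest signal well above background was 2.85 for Hepa1-6 TECs, 5.96 for cultured cells and between 4.28 and 4.68 on the other arrays. Counts above background therefore have no common limit across the arrays. Probes differ in how well they bind, so the signal of a gene is compared between arrays and not with that of another gene. In the plot of signals by array, the probes of Cdkn2b gave the same order of the arrays, whereas those of Cdkn1a did not. Those of Cdkn2c gave the same order too, but they overlap on the genome.

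**Figure D1:**
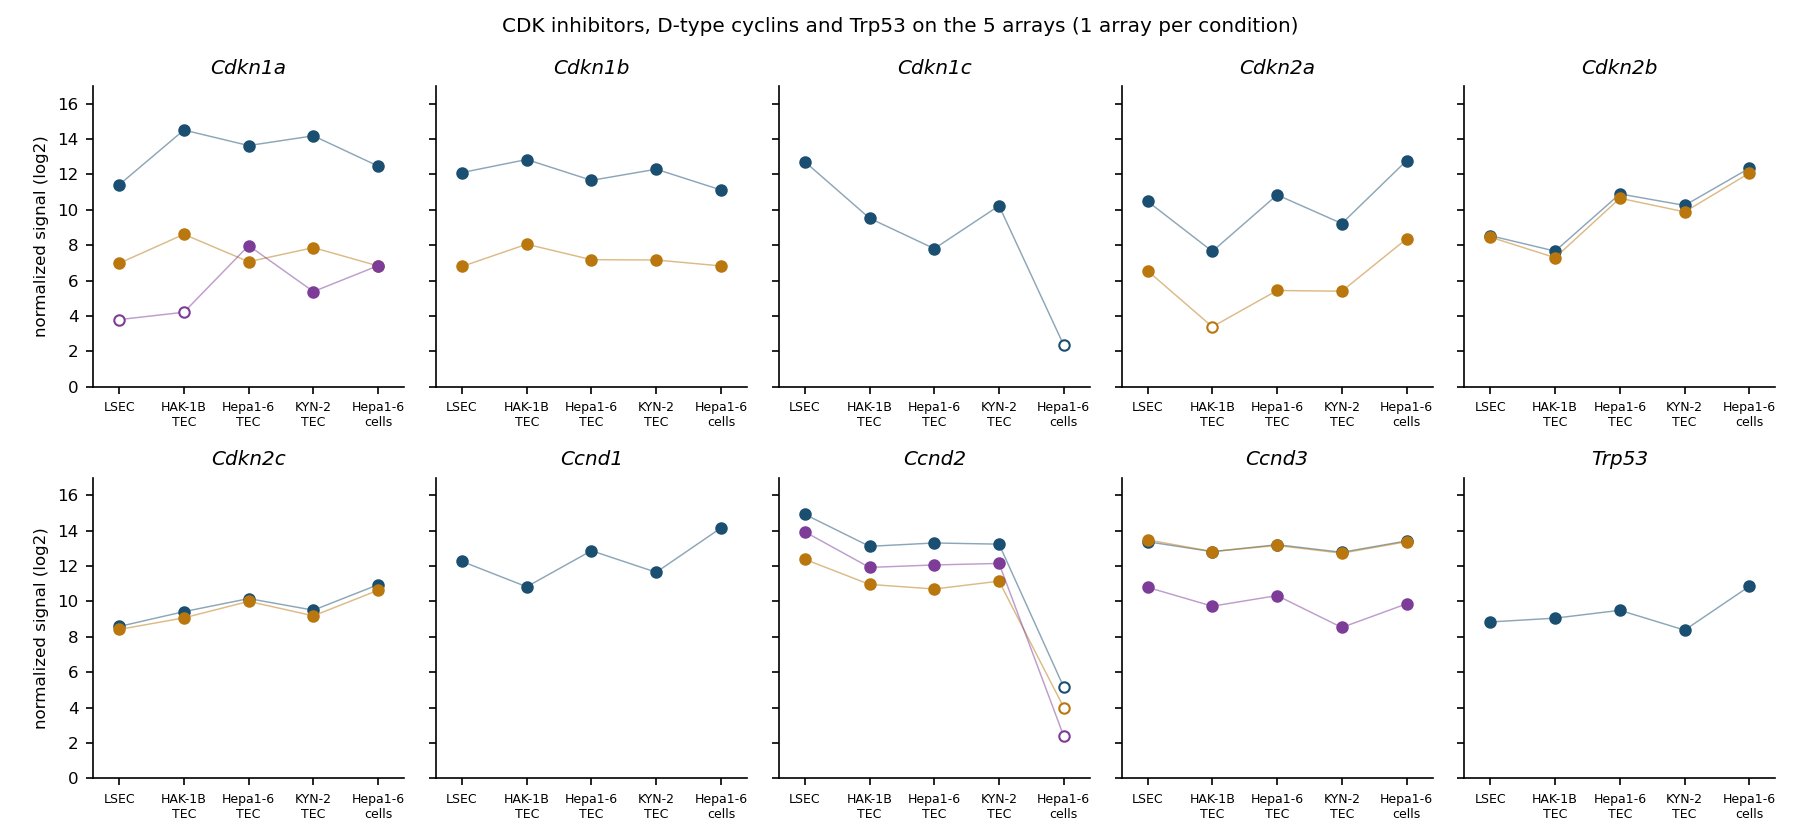
Normalized signal (log2) of each member probe on the LSEC, HAK-1B TEC, Hepa1-6 TEC, KYN-2 TEC and cultured Hepa1-6 arrays, 1 panel for each gene, with 1 colour for each probe and open circles where the probe was not well above background. The brightest Cdkn1a probe was lowest in LSECs at 11.42, and the brightest Ccnd2 probe was highest there at 14.92.

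Cdkn1a encodes p21, the inhibitor through which p53 halts the cycle, and lies on chr17:29090979-29100722 of GRCm38.p6. Its brightest probe, near the 3′ end of the gene and shared by both RefSeq transcripts, read 11.42 in LSECs, 14.51 in HAK-1B TECs, 13.63 in Hepa1-6 TECs, 14.18 in KYN-2 TECs and 12.47 in cultured Hepa1-6 cells. LSECs were thus the lowest of the 5 and all TECs were above the cultured cells. Cdkn1a signal was 8.54-fold higher in HAK-1B TECs than in LSECs, 4.65-fold higher in Hepa1-6 TECs and 6.81-fold higher in KYN-2 TECs. On the log2 scale the mean difference from LSECs was 2.69 ± 0.44 (SD over the 3 TECs), and 1.88 when the mean of the Cdkn1a probes was taken.

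A second Cdkn1a probe read 6.98 in LSECs, 8.62 in HAK-1B TECs, 7.07 in Hepa1-6 TECs, 7.87 in KYN-2 TECs and 6.83 in cultured cells. It kept the order of the TECs, but its largest difference from LSECs was 3.11-fold. Another probe belongs to the transcript that starts farther upstream (transcript variant 2) and begins 9391 bases upstream of the first on the mm9 coordinates of the array design. This upstream probe was not well above background in LSECs at 3.80 and in HAK-1B TECs at 4.21, and read 7.98 in Hepa1-6 TECs, 5.38 in KYN-2 TECs and 6.85 in cultured cells. Against the lowest signal still above background on the LSEC array it was at least 9.88-fold higher in Hepa1-6 TECs, at least 1.63-fold higher in KYN-2 TECs and at least 4.49-fold higher in cultured cells. The order of the arrays therefore differed between the probes, with HAK-1B TECs first on the shared probe and Hepa1-6 TECs first on the upstream probe.

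RefSeq places the 2 start sites of Cdkn1a 2790 bases apart. The windows around both are shown because the probes of the upstream and of all transcripts gave different orders, each with 250 bases before and 50 from the start site, on the plus strand of GRCm38.p6. In the upstream window, chr17:29090729-29091028, capitals mark a pair of p53 core letters (CATG on either side of any 6 bases) that begins 48 bases before the start site. In the downstream window, chr17:29093519-29093818, capitals mark GC boxes (GGGCGG) and a TATAA that begins 25 bases before the start site.
Cdkn1a upstream start: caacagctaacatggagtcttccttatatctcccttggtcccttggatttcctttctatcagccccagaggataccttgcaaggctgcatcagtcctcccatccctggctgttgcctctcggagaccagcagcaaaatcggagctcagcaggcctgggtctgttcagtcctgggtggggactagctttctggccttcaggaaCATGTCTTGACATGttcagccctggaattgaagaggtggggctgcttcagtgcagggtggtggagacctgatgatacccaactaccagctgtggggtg
Cdkn1a downstream start: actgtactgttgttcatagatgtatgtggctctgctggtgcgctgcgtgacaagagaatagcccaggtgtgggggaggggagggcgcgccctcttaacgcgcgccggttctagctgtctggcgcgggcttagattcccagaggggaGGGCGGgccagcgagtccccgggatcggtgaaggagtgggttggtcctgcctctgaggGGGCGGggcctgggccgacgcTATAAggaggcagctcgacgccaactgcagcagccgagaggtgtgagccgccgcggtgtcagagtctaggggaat
Searched on both strands, the p53 core pair was found in 0.712% of 32851 RefSeq promoter windows of 300 bases, the GC box in 35.7% and TATAA in 24.9%. Of the 11 windows of 7 member genes in the RefSeq table, 1 held the p53 core pair, 8 a GC box and 3 a TATAA. A match describes letters in the window and shows no binding.

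Cdkn1b encodes p27, an inhibitor that is abundant in resting cells. Its brightest probe read 12.11 in LSECs, 12.85 in HAK-1B TECs, 11.67 in Hepa1-6 TECs, 12.30 in KYN-2 TECs and 11.12 in cultured cells. These values span a log2 range of 1.72, and the TECs lay on both sides of LSECs. The other probe read 6.80 in LSECs and between 7.17 and 8.06 in TECs, so the probes differed in direction for Hepa1-6 TECs.

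Cdkn1c encodes p57, an imprinted inhibitor, and lies on chr7:143458339-143461059 of GRCm38.p6. Its single probe read 12.73 in LSECs, 9.53 in HAK-1B TECs, 7.81 in Hepa1-6 TECs and 10.23 in KYN-2 TECs, and it was not above background in cultured cells at 2.35. LSECs were the highest of the 5 arrays. Cdkn1c was 9.16-fold lower in HAK-1B TECs than in LSECs, 30.2-fold lower in Hepa1-6 TECs and 5.63-fold lower in KYN-2 TECs. In cultured cells it was at least 109-fold lower. Cdkn1a and Cdkn1c therefore lay on opposite sides of LSECs in each TEC sample.

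Cdkn2a and Cdkn2b are neighbours on chromosome 4, at chr4:89274473-89294619 and chr4:89306289-89311032 of GRCm38.p6. Cdkn2a encodes p16Ink4a and, from an upstream start, p19Arf, which protects p53 from Mdm2. Both Cdkn2a probes carry the accessions of both transcripts, so the proteins cannot be told apart here. The brightest Cdkn2a probe read 10.48 in LSECs, 7.65 in HAK-1B TECs, 10.85 in Hepa1-6 TECs, 9.23 in KYN-2 TECs and 12.78 in cultured cells. HAK-1B TECs were the lowest and cultured cells the highest. Cdkn2a was 7.10-fold lower in HAK-1B TECs than in LSECs, 1.29-fold higher in Hepa1-6 TECs and 2.38-fold lower in KYN-2 TECs. The other Cdkn2a probe read 6.56 in LSECs, 5.44 in Hepa1-6 TECs, 5.40 in KYN-2 TECs and 8.36 in cultured cells, and at 3.39 it was not above background in HAK-1B TECs, at least 4.85-fold below LSECs. For Hepa1-6 TECs the Cdkn2a probes differed in direction.

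Cdkn2b encodes p15, an inhibitor known as a target of TGF-beta signalling. Its brightest probe read 8.54 in LSECs, 7.67 in HAK-1B TECs, 10.90 in Hepa1-6 TECs, 10.25 in KYN-2 TECs and 12.36 in cultured cells, and the other probe gave the same order. Cdkn2b was 1.83-fold lower in HAK-1B TECs than in LSECs, 5.13-fold higher in Hepa1-6 TECs and 3.28-fold higher in KYN-2 TECs. In KYN-2 TECs both probes of Cdkn2a were below LSECs and both probes of Cdkn2b above. The difference between Hepa1-6 and HAK-1B TECs was the widest among the 10 genes on their brightest probes, at 3.23 on the log2 scale.

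The start sites of this locus are shown because its neighbouring genes differed in direction in KYN-2 TECs. The windows are on the minus strand of GRCm38.p6, at chr4:89294570-89294869 for the upstream Cdkn2a start, chr4:89282143-89282442 for the downstream Cdkn2a start and chr4:89310983-89311282 for Cdkn2b. Capitals mark E2F letters (TTTCCCGC), GC boxes and a cyclic AMP response element (TGACGTCA).
Cdkn2a upstream start: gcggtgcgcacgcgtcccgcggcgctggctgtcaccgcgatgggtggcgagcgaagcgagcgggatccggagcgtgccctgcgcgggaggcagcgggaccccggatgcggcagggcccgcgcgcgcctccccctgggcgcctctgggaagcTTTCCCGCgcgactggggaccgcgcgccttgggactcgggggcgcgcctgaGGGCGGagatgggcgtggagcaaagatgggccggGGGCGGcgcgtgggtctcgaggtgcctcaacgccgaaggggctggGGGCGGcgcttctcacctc
Cdkn2a downstream start: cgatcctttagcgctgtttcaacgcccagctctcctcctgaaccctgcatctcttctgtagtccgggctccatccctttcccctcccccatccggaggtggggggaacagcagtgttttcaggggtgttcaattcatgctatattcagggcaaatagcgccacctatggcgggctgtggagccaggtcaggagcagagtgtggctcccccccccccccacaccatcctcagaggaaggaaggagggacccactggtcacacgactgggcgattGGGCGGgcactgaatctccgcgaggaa
Cdkn2b start: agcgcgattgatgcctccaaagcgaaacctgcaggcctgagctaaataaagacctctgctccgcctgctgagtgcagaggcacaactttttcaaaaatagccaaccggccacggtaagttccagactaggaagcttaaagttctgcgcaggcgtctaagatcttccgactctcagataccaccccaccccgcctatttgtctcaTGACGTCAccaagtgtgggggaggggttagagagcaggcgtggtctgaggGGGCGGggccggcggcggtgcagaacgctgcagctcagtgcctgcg
The Cdkn2a start sites lie 12427 bases apart. E2F letters (TTTGGCGC, TTTGCCGC, TTTCGCGC or TTTCCCGC) were in the upstream Cdkn2a window and in 2.26% of all windows, and the cyclic AMP response element was in the Cdkn2b window and in 1.79% of all windows.

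Cdkn2c encodes p18. Its brightest probe read 8.58 in LSECs, 9.42 in HAK-1B TECs, 10.16 in Hepa1-6 TECs, 9.502 in KYN-2 TECs and 10.94 in cultured cells. LSECs were again the lowest, and the ratio to LSECs was 1.79-fold, 2.98-fold and 1.89-fold in the 3 TECs in that order. The other probe overlaps the first on the genome and cannot serve as a separate reading.

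Among the D-type cyclins, Ccnd2 was lower in each TEC sample by nearly the same amount. Its brightest probe read 14.92 in LSECs, 13.11 in HAK-1B TECs, 13.30 in Hepa1-6 TECs and 13.23 in KYN-2 TECs, and it was not above background in cultured cells at 5.15. The TECs lay within 0.19 of each other and had a mean log2 ratio to LSECs of -1.71 ± 0.10 (SD over the 3 TECs), 3.26-fold lower. The other Ccnd2 probes read 12.38 and 13.93 in LSECs and had log2 ratios between -2.01 and -1.24 in the TECs. In cultured cells the 3 probes were at least 498-fold, 85.4-fold and 251-fold lower than in LSECs.

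Ccnd1 is a cyclin induced by growth factors. Its single probe read 12.26 in LSECs, 10.83 in HAK-1B TECs, 12.86 in Hepa1-6 TECs, 11.64 in KYN-2 TECs and 14.15 in cultured cells. It was 2.70-fold lower in HAK-1B TECs than in LSECs, 1.52-fold higher in Hepa1-6 TECs and 1.53-fold lower in KYN-2 TECs. The cultured cells were thus highest in Ccnd1, while their Ccnd2 was not above background.

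Ccnd3 varied least of the 10 genes on the brightest probe, which read 13.37 in LSECs, 12.81 in HAK-1B TECs, 13.20 in Hepa1-6 TECs, 12.77 in KYN-2 TECs and 13.42 in cultured cells, a log2 range of 0.64. A second probe, which overlaps it, spanned 0.75. The remaining probe read 10.79 in LSECs and 8.52 in KYN-2 TECs, a 4.82-fold difference that the others did not show.

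Trp53 read 8.84 in LSECs, 9.05 in HAK-1B TECs, 9.495 in Hepa1-6 TECs, 8.37 in KYN-2 TECs and 10.85 in cultured cells. The TECs lay on both sides of LSECs, with ratios between 1.38-fold lower and 1.58-fold higher. Cultured cells were 4.05-fold above LSECs.

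The methods give a rule of size for calls from single arrays. A higher call needs a ratio of 1.5 or more and a Z-score no lower than 2, and a lower call needs a ratio of 0.66 or less and a Z-score no higher than -2. The Z-score here is the log2 ratio minus its mean over all probes compared, in units of its SD. It set the size that a probe had to reach for a higher call, which was 7.25-fold in HAK-1B TECs, 11.4-fold in Hepa1-6 TECs and 6.79-fold in KYN-2 TECs. In HAK-1B TECs 1 member probe passed as higher (Cdkn1a) and 3 as lower (Cdkn1c and both Cdkn2a probes) of 19 compared, where 2.77% and 3.41% of all probes passed. The dimmer Cdkn2a probe was not above background in HAK-1B TECs, and its bound of at least 4.85-fold was short of the 6.91-fold that a lower call needed, so its call rests on a reading under background. In Hepa1-6 TECs the upstream Cdkn1a probe passed as higher and Cdkn1c as lower of 20, where 3.77% and 1.94% of all probes passed. The upstream Cdkn1a probe was not above background in LSECs, and its bound of at least 9.88-fold was short of the 11.4-fold needed, so this call too rests on a reading under background. In KYN-2 TECs the brightest Cdkn1a probe passed as higher with a Z-score of 2.003 and 0 as lower, where 3.29% and 2.52% of all probes passed. No member probe passed in all 3 TECs, where 0.37% of all probes passed as higher and 0.617% as lower, but with normexp background correction the brightest Cdkn1a probe and Cdkn1c did. These comparisons share 1 LSEC array, so its deviations enter each of them. When each pair of arrays was normalized by itself, as the methods describe, the Z-score of Cdkn1a was 1.99 in HAK-1B TECs and 1.90 in KYN-2 TECs, and neither call was made.

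**Figure D2:**
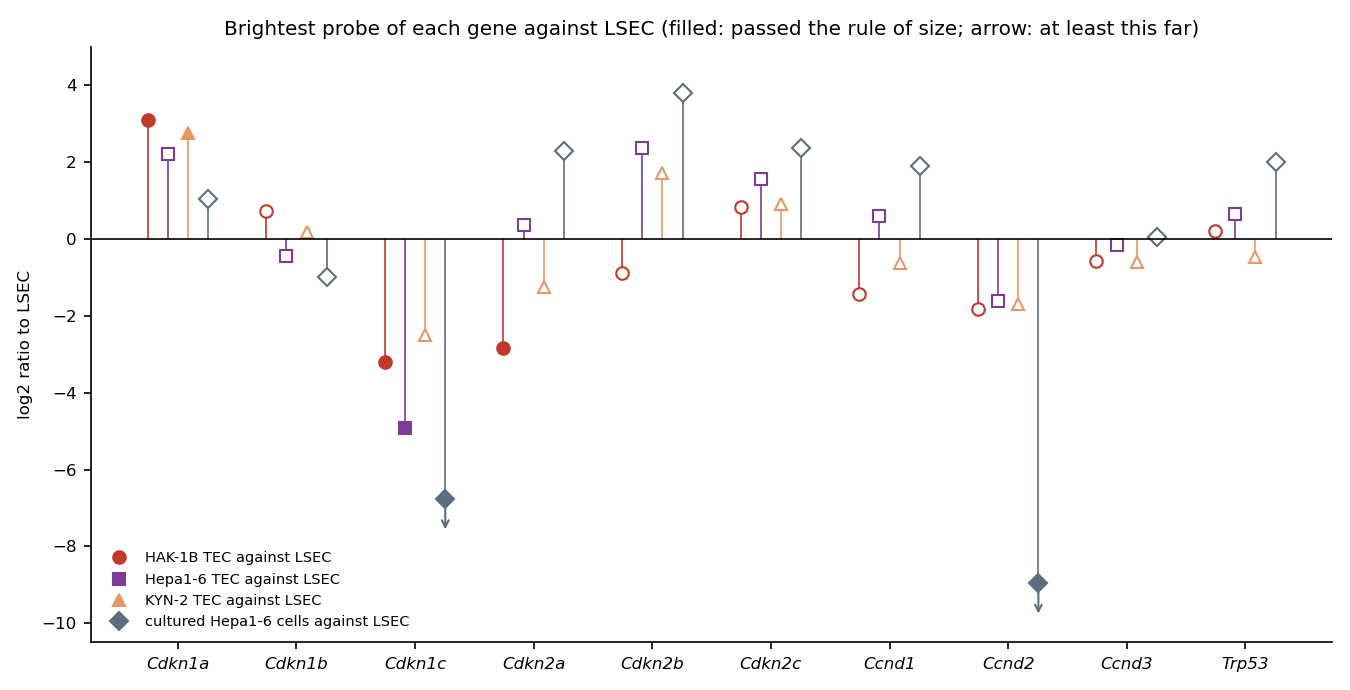
Log2 ratio to LSECs of the brightest probe of each gene in HAK-1B TECs, Hepa1-6 TECs, KYN-2 TECs and cultured Hepa1-6 cells, filled where the rule of size was passed, with arrows where the probe was not above background and the point is a bound. Cdkn1a and Cdkn2c were above 0 and Cdkn1c and Ccnd2 were below 0 in all 4.

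By a 2-fold difference in the brightest probe, 1 member gene was higher and 4 were lower in HAK-1B TECs, where 17.9% and 16.5% of all probes differed by as much. In Hepa1-6 TECs 3 were higher and 2 lower, against 23.7% and 22.8% of all probes, and in KYN-2 TECs 2 were higher and 3 lower, against 17.2% and 17.7%. These shares, here and for cultured cells below, are over single probes, whereas the members were counted by gene. The median log2 ratio of the 10 genes was -0.72 in HAK-1B TECs, 0.49 in Hepa1-6 TECs and -0.53 in KYN-2 TECs, and the median over all genes was -0.04, -0.09 and -0.04. Of 32 pairs of gene and comparison with at least 2 probes above background on both arrays, the probes shared the sign in 26. The pairs include those of Cdkn2c, whose probes overlap on the genome, so their shared sign is no separate reading. Ccnd3 has overlapping probes as well.

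The 3 TECs were also set against LSECs in limma, in which the lone LSEC array is assumed to vary like the TECs, and the TECs of 3 tumor lines stand in for replicates. Of the 20 member probes, 0 had a Benjamini-Hochberg adjusted p under 0.05 in limma, as did 0 of 42112 probes tested (0% called). An unadjusted p under 0.05 in limma was reached by 5 member probes and by 8.5% of all probes. The 5 were the brightest Cdkn1a probe, Cdkn1c and the 3 Ccnd2 probes. Their number was 2 without HAK-1B TECs, 6 without Hepa1-6 TECs and 2 without KYN-2 TECs, where the share of all probes was 5.63%, 14.8% and 4.78%. For Cdkn1a the log2 ratio was 2.69 (SE 0.59, 95% interval 1.11 to 4.27) with a limma p of 0.00836 and a Benjamini-Hochberg adjusted p of 0.448. For Cdkn1c, at -2.84 without Hepa1-6 TECs, it was -3.54 (SE 1.09, 95% interval -6.46 to -0.61) with a limma adjusted p of 0.525, and for the brightest Ccnd2 probe -1.71 (SE 0.48, 95% interval -3.00 to -0.42) with a limma adjusted p of 0.506. These intervals are not adjusted for the number of probes. Those of the other member probes included 0, among them all probes of Cdkn1b, Cdkn2a, Cdkn2b, Cdkn2c, Ccnd1, Ccnd3 and Trp53. After adjustment a difference in either direction was not detectable with these arrays for any member gene, Cdkn1a, Cdkn1c and Ccnd2 included. For Trp53 the interval ran from -1.61 to 1.88.

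**Figure D3:**
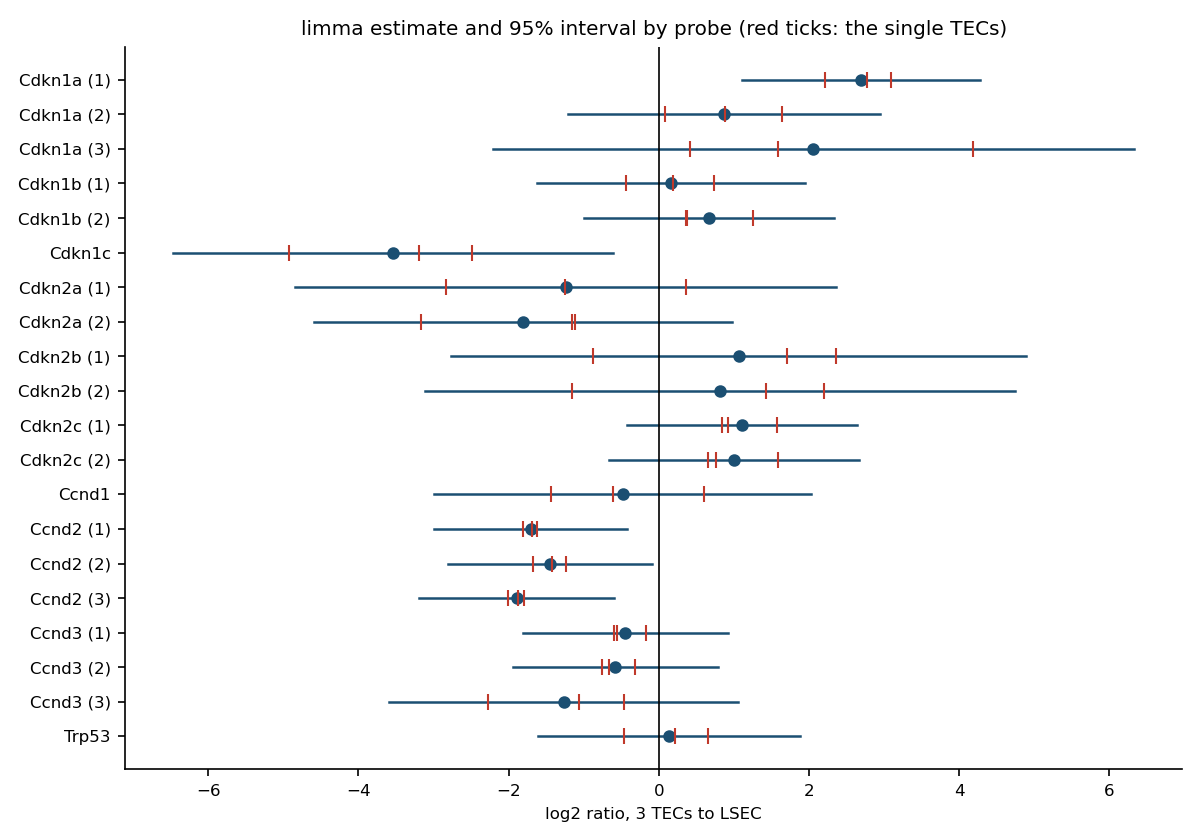
The limma estimate of the log2 ratio of the 3 TECs to LSECs (blue point) with its 95% interval (line) for each of the 20 member probes, numbered within a gene from its brightest probe, and the ratio of each single TEC as a red tick. The red ticks of the brightest Ccnd2 probe lay between -1.81 and -1.62, while those of the brightest Cdkn2b probe ran from -0.87 to 2.36.

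Cultured Hepa1-6 cells were set against LSECs to give the profile of cancer cells of 1 of the tumor lines. Of 20 member probes, 0 passed the rule of size as higher and 4 as lower (Cdkn1c and the 3 Ccnd2 probes), where 2.16% and 4.04% of all probes passed. The SD of the log2 ratios was 2.75, so a probe had to be 39.8-fold higher to pass. By 2-fold in the brightest probe 6 members were higher (Cdkn1a, Cdkn2a, Cdkn2b, Cdkn2c, Ccnd1 and Trp53) and 2 lower (Cdkn1c and Ccnd2), against 29% and 29.6% of all probes. The highest ratio was that of Cdkn2b at 14.1-fold.

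The Hepa1-6 TEC array can be set against cultured cells of the same line. The 4 probes of Cdkn1c and Ccnd2 passed as higher in TECs of 20 compared and 0 as lower, where 4.18% and 1.5% of all probes passed. A higher call needed 21.1-fold. By the brightest probe of each gene, 2 members passed as higher and 0 as lower, where 4.93% and 1.56% of all genes passed. The Ccnd2 probes were at least 162-fold, 26.7-fold and 68.4-fold higher in Hepa1-6 TECs. Cdkn1c was at least 3.59-fold higher, so its call rests on a reading under background in cultured cells, and it was lost with normexp. Cdkn1a was 2.24-fold higher there. Cdkn2a was 3.83-fold lower in Hepa1-6 TECs than in cultured cells, Cdkn2b 2.74-fold, Ccnd1 2.44-fold, Trp53 2.57-fold and Cdkn2c 1.72-fold. On their brightest probes these 5 genes also read higher in Hepa1-6 TECs than in the TECs of both human lines.

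Markers of fetal liver and hepatoma were read beside these values. Of 8 such markers 5 passed as higher in Hepa1-6 TECs against LSECs (Afp, Gpc3, Krt8, Krt18 and Epcam), where 4.51% of all genes passed on their brightest probe. The summed linear signal of the 8 was 1663 in LSECs, 1206 in HAK-1B TECs, 135970 in Hepa1-6 TECs, 7507 in KYN-2 TECs and 299297 in cultured cells. Afp, the fetal albumin, read 7.80 in LSECs, 6.21 in HAK-1B TECs, 15.38 in Hepa1-6 TECs, 8.06 in KYN-2 TECs and 15.92 in cultured cells. Epcam, an epithelial adhesion molecule, read 8.94 in Hepa1-6 TECs and was not above background on the other arrays, cultured cells included. H19, an imprinted RNA, passed as higher in HAK-1B and KYN-2 TECs and read 5.23 in LSECs, 8.37 in HAK-1B TECs, 8.73 in Hepa1-6 TECs and 9.71 in KYN-2 TECs, with no signal above background in cultured cells. Dlk1 was not above background on any array. The part of cancer cell RNA in the member signals of Hepa1-6 TECs was not tested. Cdkn1c and Ccnd2, which were not above background in cultured cells, were above it in Hepa1-6 TECs.

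Endothelial markers were lower in TECs than in LSECs, with 0, 0 and 1 of the 18 pan-endothelial markers above LSECs in HAK-1B, Hepa1-6 and KYN-2. Of 18 pan-endothelial markers 9 passed as lower in HAK-1B TECs, 3 in Hepa1-6 TECs and 3 in KYN-2 TECs, where 3.94%, 2.03% and 2.88% of all genes passed. Tek, Ptprb and Kdr passed in all 3. Of 15 LSEC markers 10 passed as lower in HAK-1B TECs, 5 in Hepa1-6 TECs and 6 in KYN-2 TECs, beside the same shares of all genes. In that order 0, 1 and 2 of them lay above LSECs. Clec4g, Dnase1l3, Wnt2, F8 and Oit3 passed as lower in all 3, where 0.617% of all probes did. Kdr, the main VEGF receptor, read 16.24 in LSECs, 12.55 in HAK-1B TECs, 12.77 in Hepa1-6 TECs and 13.00 in KYN-2 TECs. Cdkn1c and Ccnd2 were lower in the same samples, and the part of a smaller endothelial share in those values was not tested. In cultured cells 14 of the 18 passed as lower and 0 as higher, where 4.81% and 2.59% of all genes passed.

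Leukocyte markers differed between the samples as well. Of 14 neutrophil markers 11 passed as higher in HAK-1B TECs, 7 in Hepa1-6 TECs and 2 in KYN-2 TECs, where 3.12%, 4.51% and 3.65% of all genes passed. Mmp8 and Mmp9, collagenase and gelatinase of neutrophils, passed in all 3. Over the 14 markers the median log2 ratio was 4.66, 3.56 and 1.11 in that order, and 3.74, 2.17 and 0.50 with normexp. By the limit of each array, which was lowest for Hepa1-6 TECs, 14 were above background in HAK-1B TECs and 14 in Hepa1-6 TECs. KYN-2 TECs had 12, cultured cells 3 and LSECs 9. The medians therefore rest in part on readings under background in LSECs. The summed linear signal of the 14 was 94308 in LSECs, 213238 in HAK-1B TECs, 80757 in Hepa1-6 TECs, 88261 in KYN-2 TECs and 39544 in cultured cells. The sum did not follow the median, being lower in Hepa1-6 TECs than in LSECs. Its brightest marker was Csf3r on all arrays but that of HAK-1B TECs, where it was S100a9. Csf3r read 16.45 in LSECs, between 15.17 and 16.15 in TECs and 15.22 in cultured cells. With such a reading in cultured hepatoma cells, the sum does not stand for neutrophils alone. The sum was highest in HAK-1B TECs. On the brightest probes that sample was the lowest in Cdkn2a, Cdkn2b and Ccnd1 and the highest in Cdkn1a and Cdkn1b. Hepa1-6 TECs, with the next highest median, read highest of the TECs in Cdkn2a, Cdkn2b and Ccnd1 on their brightest probes. S100a9, a calcium-binding protein of neutrophils, read 9.46 in LSECs, 16.46 in HAK-1B TECs, 14.05 in Hepa1-6 TECs and 10.61 in KYN-2 TECs. All 14 were above background in HAK-1B TECs, and Mmp9 was not in LSECs. Of 15 macrophage markers 2 passed as higher in each TEC sample, and 5 passed as lower in HAK-1B TECs, 0 in Hepa1-6 TECs and 2 in KYN-2 TECs, where 3.94%, 2.03% and 2.88% of all genes passed as lower. Their median log2 ratio was 0.54, -0.86 and -0.35 in that order, the last turning to 0.33 with scaling to the 75th percentile. Among them Spp1, the gene of osteopontin, passed as higher in all 3 TECs and read 9.83 in LSECs and between 13.53 and 15.98 in TECs. The part of these cells in the member signals was not tested.

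The pathway around the members was read from lists of genes, each by its brightest probe. The first list held kinases, cyclins, RB and E2F genes outside the members, and others such as Cdkn2d, Cdkn3, Cdc25c and Skp2. Of its 36 genes, 0 passed as higher in HAK-1B TECs, 3 in Hepa1-6 TECs (Ccne1, Ccnb1 and Cdc25c) and 1 in KYN-2 TECs (Cdc25c). In these samples 0 passed as lower, and 3.12%, 4.51% and 3.65% of all genes passed as higher. Their median log2 ratio to LSECs was 0.61, 0.88 and 0.45 in that order and 2.12 in cultured cells. Ccne1, the cyclin that partners Cdk2 at the start of S phase, read 7.69 in LSECs, 9.41 in HAK-1B TECs, 11.35 in Hepa1-6 TECs, 9.48 in KYN-2 TECs and 12.79 in cultured cells. Ccnb1, the mitotic cyclin B1, read 7.04 in LSECs, 8.93, 11.07 and 9.78 in the TECs and 12.55 in cultured cells. Ccna2, the S-phase cyclin A2, read 8.02 in LSECs and between 9.70 and 11.23 in TECs, and the repressor E2f8 read 6.48 in LSECs and between 8.61 and 9.65. These readings were all higher than in LSECs and highest of the TECs in Hepa1-6. Cdk6, a partner of the D-type cyclins, read 9.40 in LSECs and between 11.13 and 11.37 in TECs, and the other partner Cdk4 read 13.83 in LSECs and between 13.17 and 14.13 in TECs. Cdk4, Cdk6 and Cdc25c were named after their values were seen.

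Proliferation markers were higher than in LSECs in 18 of 19 genes in each TEC. Their median log2 ratio was 1.32 in HAK-1B TECs, 2.58 in Hepa1-6 TECs, 1.88 in KYN-2 TECs and 4.16 in cultured cells, while 0, 2 and 2 of the 19 passed as higher in the TECs, where 3.12%, 4.51% and 3.65% of all genes passed. The mitotic genes Plk1 and Cdc20 passed in Hepa1-6 TECs and Bub1 and Cdc20 in KYN-2 TECs. Cdc20 read 8.84 in LSECs, 10.44 in HAK-1B TECs, 12.83 in Hepa1-6 TECs, 11.77 in KYN-2 TECs and 13.58 in cultured cells. Top2a, a topoisomerase of dividing cells, read 8.74 in LSECs, 10.56 in HAK-1B TECs, 12.15 in Hepa1-6 TECs, 10.96 in KYN-2 TECs and 13.44 in cultured cells. Higher Cdkn1a signal and higher proliferation markers were thus read on the same TEC arrays.

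Cdkn1a is a target of p53, and 29 other target genes were listed, which lay on both sides of LSECs. Their median log2 ratio to LSECs was 0.20 in HAK-1B TECs, 0.59 in Hepa1-6 TECs and -0.04 in KYN-2 TECs, the last turning to 0.15 with scaling to the 75th percentile. In HAK-1B TECs 0 of the 29 passed, in Hepa1-6 TECs 3 passed as higher (Phlda3, Perp and Psrc1) and in KYN-2 TECs 1 did (Tnfrsf10b), where 3.12%, 4.51% and 3.65% of all genes passed. Psrc1 read 5.79 in LSECs, 6.54 in HAK-1B TECs, 12.27 in Hepa1-6 TECs, 7.48 in KYN-2 TECs and 14.26 in cultured cells. Tnfrsf10b, a death receptor, was higher in each TEC sample at a log2 ratio of 1.83, 2.46 and 2.79. Fas, another death receptor, read 12.55 in LSECs and between 9.43 and 9.96 in TECs. Mdm2, the ligase that degrades p53, read 12.73 in LSECs, 13.45, 13.35 and 13.94 in the TECs and 14.54 in cultured cells. Phlda3, an inhibitor of Akt, read 9.75 in LSECs and 10.22, 13.52 and 11.11 in the TECs. Of 14 regulators of p53 on the array, 0 passed in any TEC. Npm1, the nucleolar protein nucleophosmin, read 13.12 in LSECs and between 13.99 and 15.29 in TECs, while Mdm4, a partner of Mdm2, read 10.57 in LSECs and between 9.48 and 10.04. Hipk2, a kinase of p53, read 10.64 in LSECs and between 9.75 and 10.14 in TECs.

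**Figure D4:**
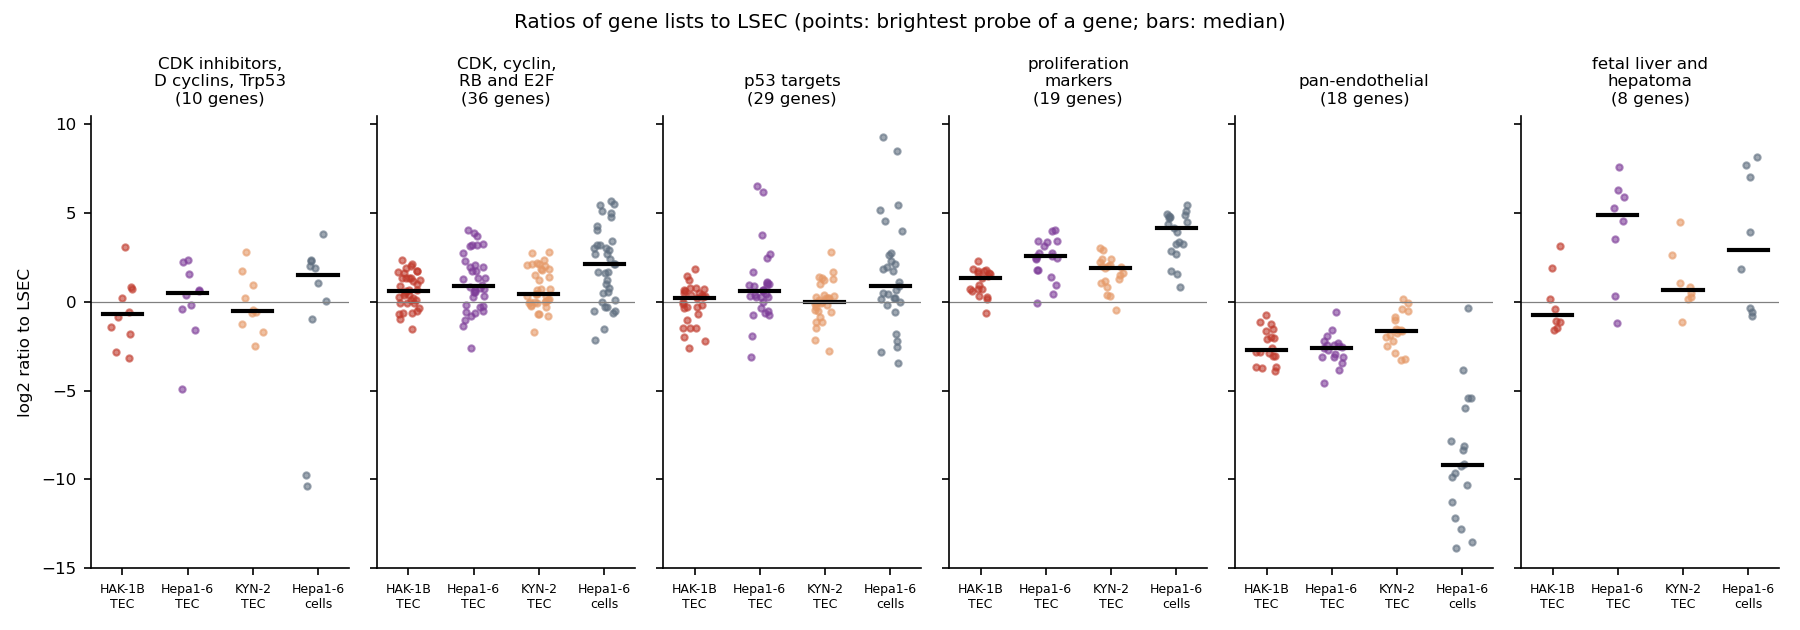
Log2 ratio to LSECs of the brightest probe of each gene in 6 lists, with black bars for the median, in HAK-1B TECs, Hepa1-6 TECs, KYN-2 TECs and cultured Hepa1-6 cells. Values of probes below background are shown as measured. The median of the proliferation markers was above 0 in all 4 samples and that of the pan-endothelial markers was below 0.

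Of 16 regulators of the INK4 locus, Id1 passed as lower in HAK-1B TECs and Cbx7 in Hepa1-6 TECs, where 3.94% and 2.03% of all genes passed on their brightest probe. Id1, a repressor of Cdkn2a transcription, was named after its values were seen and read 11.37 in LSECs, 8.04 in HAK-1B TECs, 13.39 in Hepa1-6 TECs, 9.01 in KYN-2 TECs and 13.54 in cultured cells. The Polycomb protein gene Cbx7, whose product silences the INK4 locus, read 9.79 in LSECs, 8.06 in HAK-1B TECs, 5.87 in Hepa1-6 TECs and 8.07 in KYN-2 TECs. Ezh2, the methyltransferase of Polycomb, had log2 ratios of 0.88, 1.67 and 1.82 in the TECs, and Kdm6b, the demethylase that opposes it, of 2.40, 1.38 and 1.77. Ets1, an activator of Cdkn2a transcription, read 12.91 in LSECs and between 11.22 and 11.81 in TECs.

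Of 19 genes of quiescence and FoxO signalling, 1 (Hes1) passed as lower in HAK-1B TECs and 1 (Hes1) in Hepa1-6 TECs, where 3.94% and 2.03% of all genes passed as lower. Hes1, a Notch target, read 10.09 in LSECs, 6.77 in HAK-1B TECs, 6.56 in Hepa1-6 TECs, 7.91 in KYN-2 TECs and 7.92 in cultured cells. Txnip, a FoxO target, read 16.56 in LSECs and between 13.94 and 14.42 in TECs, and Gas6, a gene first found in growth arrest, read 15.84 in LSECs and between 13.49 and 14.15 in TECs. Mybl2, a driver of late cell cycle genes, passed as higher in Hepa1-6 TECs and read 7.61 in LSECs and between 9.45 and 11.30 in the TECs. Of 13 genes used as markers of senescence, secreted factors and nuclear proteins among them, 3 passed as higher in HAK-1B TECs, 2 in Hepa1-6 TECs and 3 in KYN-2 TECs and 0 as lower, where 3.12%, 4.51% and 3.65% of all genes passed as higher. In cultured cells 2 passed as higher and 5 as lower, where 2.59% and 4.81% of all genes passed. Igfbp3 was among the higher calls in all 3 TECs and in cultured cells, while Lmnb1, known to be low in senescent cells, was 1 of the 3 higher calls in HAK-1B TECs. Igfbp3, which binds insulin-like growth factors, read 8.99 in LSECs and between 14.25 and 16.24 in TECs. Lmnb1, a nuclear lamin, read 9.51 in LSECs and 13.09, 12.32 and 11.72 in the TECs. Hmga1, a chromatin protein, read 12.78 in LSECs and between 14.78 and 15.47 in TECs.

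Genes with the profile closest to each member were sought among 14874 genes above background on all 5 arrays, by the root mean square difference of log2 profiles centred over the 5 arrays. For Cdkn1a they were P2ry2 at 0.14, Gsn at 0.17 and Sestd1 at 0.20. For Ccnd1 they were Pars2 at 0.12, Zfp948 at 0.13 and the p53 target Zmat3 at 0.14, and for Trp53 Lrwd1 at 0.015, Fam84b at 0.072 and Pde4dip at 0.083. For Cdkn2a they were Gm16537 at 0.18, Sh3d19 at 0.25 and Parva at 0.32, and for Cdkn2b Gpx8 at 0.31, Lurap1l at 0.33 and C77080 at 0.41. For Cdkn2c they were Prep at 0.056, Fbxw8 at 0.066 and Ubl4 at 0.074. For Cdkn1b Fbxw4 stood at 0.072 and for Ccnd3 Topors at 0.028, the other probes there carrying provisional names. Cdkn1c and Ccnd2 were not above background on all 5 arrays and had no such genes. The distances describe these arrays alone.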

How the data were processed

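Gene expression in LSECs, 3 TECs and cultured Hepa1-6 cells was measured on 5 arrays. The authors deposited linear spot intensity values from which local background had been subtracted by Agilent Feature Extraction (version 10.7.1.1 in the headers, 9.5.1.1 in the submitters' notes) and the flags of the spots. A second deposited intensity table, already normalized, served as an alternative. How many arrays entered its normalization is not given in the sources used here. Spots of a probe were averaged, control spots were left out, and quantile normalization of log2 values used all 5 arrays. A comparison kept probes called present on either array and left out lincRNA. The probe of highest mean log2 signal was the brightest of a gene. LSECs and 3 TECs entered a fit in limma 3.58.1 (R 4.3.3, 2 residual degrees of freedom) with Benjamini-Hochberg adjustment over all probes. Other steps used Python 3.11.15. Both the rule of size and limma were tested on simulated data, with independent noise of the same size for all probes and an equal shift in all 3 TECs. That setting is simpler than these arrays, so the check covers the steps and not what they can detect here. The median coefficient of variation of repeated spots lay between 2.62% and 3.08%, and each member probe had 1 spot. The number of arrays limits the precision.

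The members, lists and alternatives were chosen with earlier results of these data known. Of each list, up to 4 genes with the largest mean ratio in TECs, in either direction, were to be named. These came from the genes above background in LSECs and all 3 TECs. Genes called in all 3 TECs were to be named too, and other listed genes were named after their values were seen. Of 20 member probes, 16 matched their symbol in RefSeq of GRCm38.p6 and 4 had no RefSeq accession there. Alternatives were scaling to the 75th percentile, normalization by pair, the deposited table, normexp (offset 50), other flag filters, no Z-score, the mean of a gene's probes, an intensity trend in limma and each TEC left out. Some listed genes are not reported here.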

Additional observations from a re-analysis of the deposited data

Results flagged for a closer look

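Cdkn2b was read in opposite directions in the TECs of different tumors. Its log2 ratio to LSECs was higher in Hepa1-6 TECs than in HAK-1B TECs by 3.23, being above LSECs in the former and below in the latter, each with 1 array. Ccnd1 differed in the same manner, by 2.04. Cdkn2a on its brightest probe had log2 ratios of -2.83 in HAK-1B TECs and 0.36 in Hepa1-6 TECs, the latter short of the ratio of 1.5, and its other probe was below LSECs in both. None of these differences was tested, since each TEC had 1 array, and the comparisons share the LSEC array.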

How the results depend on the processing

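The direction of all 10 genes in all 5 comparisons (50 pairs) was kept under scaling to the 75th percentile, normexp and the deposited table, with 0 changes of sign. Of 35 counts of called member probes under alternatives, 22 stayed within 1.5 times, though not always with the same probes. With normexp HAK-1B TECs lost the dimmer Cdkn2a probe and gained a Ccnd2 probe, Hepa1-6 TECs lost the upstream Cdkn1a probe and gained the brightest Cdkn1a and Cdkn2b probes, and Hepa1-6 TECs against cultured cells lost Cdkn1c. Normalized by pair, the count was 2 in place of 4 in HAK-1B TECs and 0 in place of 1 in KYN-2 TECs. With probes present on both arrays it was 1 in place of 2 in Hepa1-6 TECs, 3 in place of 1 in KYN-2 TECs, 1 in place of 4 in cultured cells and 0 in place of 4 in Hepa1-6 TECs against cultured cells. In KYN-2 TECs this filter added Cdkn1c and Ccnd3 as lower, and in cultured cells its 1 call was Cdkn2b as higher. For KYN-2 TECs it was 3 with normexp and 2 with no filter on flags. By ratio alone the counts were 17 in HAK-1B TECs, 13 in Hepa1-6 TECs, 16 in KYN-2 TECs, 16 in cultured cells and 14 in Hepa1-6 TECs against cultured cells, where between 53.2% and 73.6% of all probes passed. Where no construction of the alternative shows it, the cause was not tested. Over all probes the calls numbered 2362, 1934 and 2339 in Hepa1-6 TECs, cultured cells and Hepa1-6 TECs against cultured cells, and 1468, 1144 and 1352 with probes present on both arrays. With no filter on flags they were 3152 in place of 1981 in HAK-1B TECs, 2945 in place of 1809 in KYN-2 TECs and 3254 in place of 1934 in cultured cells. With normexp 1223 probes were higher and 985 lower in Hepa1-6 TECs, against 1559 and 803. Scaling to the 75th percentile put the median ratio of all probes to LSECs at -0.37 in HAK-1B TECs, 0.29 in Hepa1-6 TECs, -0.14 in KYN-2 TECs and 0.83 in cultured cells. The median of the member genes over 3 TECs was -0.15, between -0.35 and -0.06 with each TEC left out. In limma 0 member probes passed the adjusted p of 0.05 under any alternative, with the smallest adjusted p among them between 0.207 and 0.982. Of 70 gene ratios under alternatives, 67 moved by less than the SD over the TECs. The others were Cdkn1a at 1.88 and Ccnd3 at -0.76 with the mean of all probes of a gene, and Ccnd2 at -1.32 with scaling to the 75th percentile. The mean ratio turned from 0.16 to -0.12 for Cdkn1b without HAK-1B TECs and from 0.14 to -0.12 for Trp53 without Hepa1-6 TECs, both within the SD over the TECs. Slide as a block was not run, since LSECs lay alone on their slide. No paired analysis was possible because no condition was measured more than once. Signal over background limits Cdkn1c and Ccnd2 in cultured cells to bounds.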

Other observations

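Genes of red cells and platelets, which no comparison above uses, differed between the tumors. Hba-a1, a hemoglobin chain, read 17.80 in LSECs, 12.43 in HAK-1B TECs, 15.26 in Hepa1-6 TECs and 16.93 in KYN-2 TECs. Of 7 such genes 4 passed as lower in HAK-1B TECs, where 3.94% of all genes passed, and 0 passed in Hepa1-6 and KYN-2 TECs. Of 12 genes of stellate cells and fibroblasts 1 passed as higher in HAK-1B TECs, 3 in Hepa1-6 TECs and 3 in KYN-2 TECs, where 3.12%, 4.51% and 3.65% of all genes passed. Col1a1, a collagen gene and the 1 that passed in all 3, was not above background in LSECs at 4.72 and read 9.46 in HAK-1B TECs, 10.87 in Hepa1-6 TECs and 11.53 in KYN-2 TECs. Of 13 lymphocyte markers on the array 2 passed as higher in Hepa1-6 TECs and 0 in HAK-1B and KYN-2 TECs, where 4.51%, 3.12% and 3.65% of all genes passed. Their median log2 ratio was 0.26 in HAK-1B TECs, -0.79 in Hepa1-6 TECs and 0.33 in KYN-2 TECs, that in Hepa1-6 TECs being -0.06 with scaling to the 75th percentile and -0.13 with normexp. Among them Gzma, a protease of cytotoxic lymphocytes, read 9.35 in LSECs, 8.47 in HAK-1B TECs, 14.85 in Hepa1-6 TECs and 11.18 in KYN-2 TECs. Of 14 hepatocyte genes 8 passed as lower and 1 as higher in HAK-1B TECs and 6 as lower in KYN-2 TECs, where 3.94% and 2.88% of all genes passed as lower. In Hepa1-6 TECs 0 passed and 12 of the 14 lay above LSECs. Alb, the gene of albumin, stood at 12.97 in LSECs, 6.51 in HAK-1B TECs, 15.54 in Hepa1-6 TECs and 8.85 in KYN-2 TECs. Of 14 housekeeping genes 0 passed in any TEC, and Gapdh was higher by a log2 ratio of 0.84, 0.84 and 1.32.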
